A study of Mus musculus with 6 samples.

Results

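The genes for the proteins of the cytosolic ribosome were compared in immortalized mouse embryonic fibroblast (MEF) lines that lack core clock genes. They were chosen by symbol alone: names that begin with Rpl or Rps and a number, and Rplp0, Rplp1 and Rplp2, without the Rps6k kinases (10 genes) and without copies with -ps in their name (33 genes). This gave 90 of the 27179 genes counted. Of the 90, 43 encode core proteins of the large (60S) subunit, 3 the P stalk of that subunit and 30 core proteins of the small (40S) subunit, which makes 76 core members. A further 10 were listed paralogs and retrogenes, 3 were other copies (Rpl32l, Rpl37rt and Rpl6l), and 1, Rps19bp1, encodes a protein that binds the ribosomal protein RPS19 and is no ribosomal protein itself. Fau, Rpsa and Rack1 also encode ribosomal proteins, but their names fall outside the rule, and they are described apart.

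All 3 lines are C57BL/6 and per1-/-, per2-/-. The first line is also cry1-/- and cry2-/- (Cry/Per_KO), the second is cry1-/-, cry2-/-, nr1d1-/- and nr1d2-/- (Cry/Per/Nr1d_KO), and the third is nr1d1-/- and nr1d2-/- with its Cry genes kept (Per/Nr1d_KO). Cry/Per/Nr1d_KO is 1 clone made with CRISPR/Cas9 from Cry/Per_KO cells, and each genotype is represented by 1 cell line, so a difference between lines cannot be told apart from a difference between clones. No line with intact clock genes and no treatment entered the experiment, and the cells were grown in high-glucose DMEM with 10% FBS. Each line has 2 libraries, from separate RNA preparations that the study describes as independent experiments, and the p-values measure the spread between these experiments within 1 line. For 4 of the libraries the genotype label conflicts with the deposited name, which exchanges Cry/Per_KO and Cry/Per/Nr1d_KO. Groups follow the genotype label here, and the pairs are called CP-labelled (Cry/Per_KO), CPN-labelled (Cry/Per/Nr1d_KO) and PN (Per/Nr1d_KO). All 3 comparisons are given: if the names were right and the labels wrong, the first would only change its sign and the other two would change places. The levels of clock genes, given further on, go against the genotype labels, so every direction below is one between libraries by their label.

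A ribosome is built from ribosomal RNA and ribosomal proteins in fixed proportions, nearly all of them as a single copy, with more copies of the acidic proteins RPLP1 and RPLP2 of the P stalk. The 40S subunit reads the mRNA, the 60S subunit joins the amino acids, and the P stalk of the 60S subunit recruits the elongation factors. Most ribosomal protein mRNAs begin with a C followed by a run of pyrimidines, the 5′ terminal oligopyrimidine (TOP) motif, through which mTOR and LARP1 set their translation. Each protein has a single main gene, but the genome holds very many processed pseudogenes of them, and a short read that fits several places may be dropped from a count. In fibroblasts, as in all growing cells, these mRNAs are among the most abundant, and their transcription follows growth.

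The start of the mRNA is shown for 5 members whose levels are described further on: 3 that lie on chromosome 3, 1 on chromosome 9, and Rps12. In the CP-labelled libraries Rps12 was higher than in the CPN-labelled ones, while the 3 on chromosome 3 were lower. The sequences are the RefSeq windows of GRCm38.p6 (the assembly of mm10), from 75 bases before to 25 bases after the annotated start, read 5′ to 3′ on the strand of the gene. Capitals mark a pyrimidine run from a C that lay within 5 bases of the annotated start and was followed by at least 4 bases, each C or T. Where several such Cs lay there, the capitals begin at the one nearest the start. Pyrimidines just before that C, as in Rpl14 and Rps27, stay in small letters.
Rps27 (chr3:90213624-90213723, - strand): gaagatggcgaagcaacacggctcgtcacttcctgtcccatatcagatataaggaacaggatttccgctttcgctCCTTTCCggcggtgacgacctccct
Rpl34 (chr3:130730374-130730473, - strand): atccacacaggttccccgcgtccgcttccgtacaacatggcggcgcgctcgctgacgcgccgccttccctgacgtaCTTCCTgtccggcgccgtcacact
Rpl22l1 (chr3:28805433-28805532, + strand): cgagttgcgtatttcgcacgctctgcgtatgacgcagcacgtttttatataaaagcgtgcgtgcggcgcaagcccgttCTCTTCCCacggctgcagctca
Rpl14 (chr9:120571442-120571541, + strand): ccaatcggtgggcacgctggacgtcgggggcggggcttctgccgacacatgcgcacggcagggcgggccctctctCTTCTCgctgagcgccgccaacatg
Rps12 (chr10:23787185-23787284, - strand): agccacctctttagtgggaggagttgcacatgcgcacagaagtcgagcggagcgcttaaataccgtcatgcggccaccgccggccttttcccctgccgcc

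Of the 76 core members, 56 had a RefSeq window of 250 bases before to 50 bases after the start. In 27 of these 56 (48.2%) such a C lay within 5 bases of the annotated start, against 23.9% of the 9352 genes tested that had a window. Exactly at the annotated start, it was found in 13 (23.2%) of the core members and in 2.92% of the genes tested. Rps12 had no such C within this limit, and a run of 11 pyrimidines began 8 bases after its annotated start. In the 27 core members, the run counted from that C was 5 to 17 bases long, with a median of 8. Pyrimidines before the C were not counted, so the whole run can be longer and can begin earlier. The letters CACGTG, the E-box that CLOCK-BMAL1 binds, lay somewhere in the window of 6 of the 56 (10.7%), Rpl14 and Rpl34 among them, and in 12.1% of the genes tested. AGGTCA, the half-site of NR1D and other nuclear receptors, lay in 5 of the 56 (8.93%) and in 14.2% of the genes tested. CCGGAAG, a motif of ETS factors, was found in 23 (41.1%) against 21.0%, and AAGATGG, the core of the YY1 motif, in 9 (16.1%) against 8.52%. A gene was counted where any of its windows held the letters, and 8 of the 56 had more than 1 annotated start. These motifs were searched on both strands, CACGTG reads the same on both, and a match is a description of the letters only.

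Libraries held 53764390 to 85927236 counts, and normalized counts are counts after TMM scaling, for a library of mean effective size. Fibroblast markers summed to 1055480 and 1001980 normalized counts in the CPN-labelled libraries, 889500 and 913486 in the CP-labelled ones and 1829410 and 1806510 in the PN ones, with 1 of the 10 at 0 in 3 libraries, and 5 lists of markers of other cell types summed to between 17.7 and 280 each. Of these, the muscle markers were at 35.6 and 46.1 in the CP-labelled libraries against 149 and 173 in the CPN-labelled ones, and the endothelial markers at 49.0 and 57.9 against 113 to 138 in the other 4. The PN libraries were highest in epithelial markers, at 137 and 141 against 17.7 to 64.4, and in blood markers, at 262 and 280 against 110 to 162. The germ cell markers were at 171 and 184 in the CP-labelled libraries and at 107 to 128 in the other 4. The part of these lists in the results was not tested.

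The labels were checked on the targeted genes. Nr1d1 gave 3158 and 3146 normalized counts in the CPN-labelled libraries, 9337 and 9249 in the CP-labelled ones and 5359 and 4838 in the PN ones. Nr1d2, Per1 and Per2 were likewise higher in both CP-labelled than in both CPN-labelled libraries, with 8262 and 8008 against 4881 and 5506 for Nr1d2, 5644 and 5793 against 3066 and 3062 for Per1, and 6633 and 6838 against 4866 and 4999 for Per2. The Nr1d alleles of the CRISPR clone carry small frameshifts, which a count per gene does not read, so the level of a mutated gene does not show by itself which line it came from. Arntl (BMAL1) and Cry1 are genes that NR1D proteins are known to repress. Arntl had 1192 and 1171 normalized counts in the CPN-labelled libraries, 2176 and 2208 in the CP-labelled ones and 2493 and 2455 in the PN ones, and Cry1 had 1698 and 1724, 5323 and 5478, and 1535 and 1592. Both were higher in the CP-labelled libraries, whose label keeps the Nr1d genes, than in the CPN-labelled ones, whose label lacks them, which goes against the genotype labels of these 4 libraries and with their deposited names. The PN libraries, which also lack the Nr1d genes, had the highest Arntl and the lowest Cry1. Arntl was added to this check after the other levels were seen. In bulk RNA, fewer cells of a kind and less RNA per cell cannot be told apart.

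All 76 core members had a count in every library, but their levels lay far apart. Per kilobase of transcript, the mean level of the 6 libraries spanned a 5590-fold range. Rpl8, a core protein of the 60S subunit near the peptidyl transferase centre, stood highest with 89765 normalized counts per kb, followed by Rplp1, one of the acidic proteins of the P stalk, with 62648, and Rps15, a protein of the head of the 40S subunit, with 52219. At the other end stood Rpl39, a very small protein of the 60S exit tunnel, with 16.1 normalized counts per kb, Rpl5, which carries the 5S rRNA into the 60S subunit, with 51.2, and the 60S protein Rpl28 with 54.0. The 5 core members with the most counts held 48.9% of all core counts. Rpl8, Rps15, Rpl39, Rpl5 and Rpl28 each enter the ribosome as a single copy, and their counts were very unequal.

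These levels moved with the sequence that a gene shares with others. The main coding transcript of each gene was read in windows of 50 bases, the read length, and a window was called shared when the same 50 bases, on either strand, occur in an annotated exon of another gene. Over the core members a median of 56.7% of windows was shared, and in 46 of 76 it was 50% or more. The 9 members with under 25% shared had a median level of 16570 normalized counts per kb, the 21 members between 25% and 50% had 4453, the 23 between 50% and 75% had 1917, and the 23 above 75% had 583. Across the 76 core members the Spearman correlation between the level and the share was -0.40, a description across genes that share the same libraries. Level and share both rest on 1 annotated transcript per gene, which in some members was far longer than its coding sequence. It had 5130 bases with 390 coding in Rps15a, 3706 with 357 in Rps20 and 1613 with 399 in Rps24. All of these were among the 9 members with under 25% shared, and a longer transcript lowers the level per kb. Rpl39 did not follow this order, with 16.5% of its windows shared and the lowest level. Rps27 had 4 windows of its own among 296, and 72 to 364 raw counts in a library. Other annotated transcripts of a gene can hold more sequence of its own: over all transcripts of Rps27, 888 of 1184 different 50-base stretches were not shared, so it is not known where in the gene these counts came from. The order of the 76 levels was nearly the same in the 3 groups, with Spearman correlations of 0.988 to 0.994 between their mean levels. The authors' treatment of reads that map to several places is not given in the sources used here, so a level compares genes only for what was counted, while a fold change compares the same gene between lines.

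**Figure D1:**
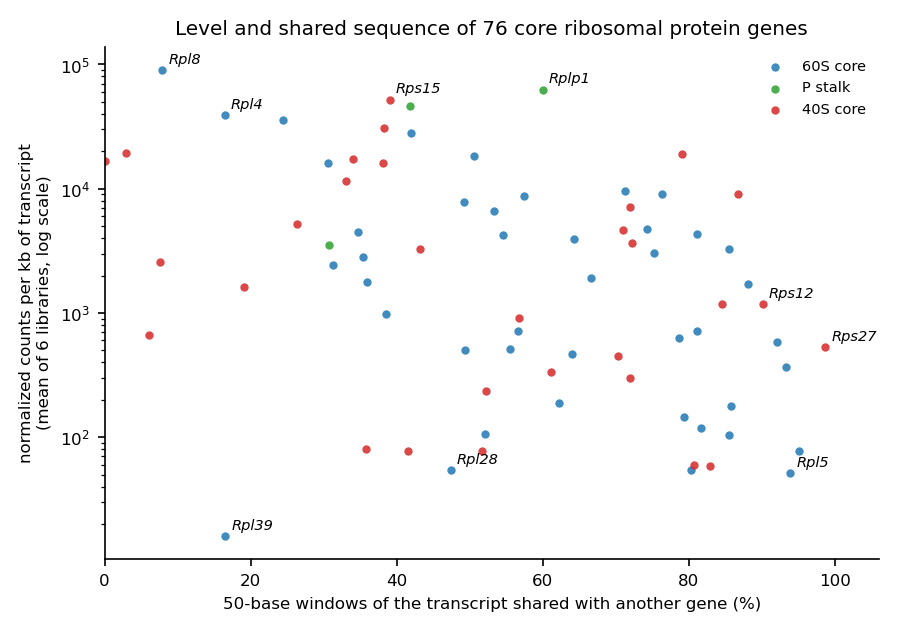
Mean normalized counts per kb of transcript over the 6 libraries (y axis, log scale) against the percent of 50-base windows shared with another gene (x axis) for the 76 core members, coloured by subunit. The levels run from Rpl39 at 16.1 to Rpl8 at 89765, and the median level falls from 16570 in the members with under 25% of windows shared to 583 in those above 75%.

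As a family, the members took 0.933% ± 0.0428 (SD, n = 2) of the counts in the CPN-labelled libraries, 0.850% ± 0.0248 in the CP-labelled ones and 0.838% ± 0.0131 in the PN ones. The CPN-labelled libraries, at 0.963% and 0.903%, lay above the other 4, which ran from 0.828% to 0.867%. The summed counts of the subunits did not go in step. The 40S members took 0.317% ± 0.00927, 0.256% ± 0.00741 and 0.284% ± 0.00465 of the counts in the same order, and no groups overlapped, whereas the 60S members with the P stalk took 0.573% ± 0.0317, 0.554% ± 0.0172 and 0.508% ± 0.00750. The ratio of 60S to 40S counts was 2.17 in each CP-labelled library, 1.84 and 1.77 in the CPN-labelled ones, and 1.79 in each PN library. An exact permutation test over 2 libraries against 2 cannot give a two-sided p below 0.333, and no other test of these shares was run. The sums rest on the few members that hold most counts, and the next paragraphs therefore go gene by gene. There the subunits were close to each other. The median log2 fold changes of the 60S members with the P stalk and of the 40S members were -0.28 and -0.32 (CP-labelled against CPN-labelled). They were 0.09 and 0.02 for PN against CPN-labelled, and 0.35 and 0.34 for PN against CP-labelled.

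Of the 90 members, 69 had a mean of at least 100 normalized counts and were tested, 63 of them core, and 21 were not, 13 of them core. Rpl10l and Rpl39l had no count in any library. The test was edgeR's quasi-likelihood test over all 11934 genes that passed this limit, with Benjamini-Hochberg adjustment over all of them. A gene was called at an adjusted p under 0.05, and the calls past the fold of 1.75 that the study used are given apart. The groups did not overlap for 50, 44 and 56 of the 69 members in the 3 comparisons, in the order in which these are described, against 86.4%, 87.1% and 90.4% of all genes tested.

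The first comparison asks what differs between the CP-labelled and the CPN-labelled libraries, the pair of lines that differ in Nr1d1 and Nr1d2. Which of them lacks these genes depends on whether the label or the deposited name is right. Of the 69 members, 40 (58.0%) were lower in the CP-labelled libraries and 5 (7.25%) were higher, whereas over all genes tested 38.3% were lower and 38.1% higher. The median log2 fold change of the members was -0.30, with quartiles of -0.47 and -0.03, beside a median of -0.00 for all genes. The differences were small: past the fold of 1.75, 5 members were lower (Rpl34, Rps27, Rpl22l1, Rps19bp1 and Rpl27) and 1 was higher (Rps12), beside 8.95% and 7.86% of all genes, so the share of members was below or near that of all genes. With the mean limit lowered to 10 normalized counts, 83 members were tested and 8 were lower past the fold. No share of all genes is given at that limit, so this count has no background beside it. Both subunits were shifted, with medians of -0.28 for the 39 tested members of the 60S subunit and P stalk (19 lower, 3 higher) and -0.32 for the 24 of the 40S subunit (16 lower, 1 higher). Without 1 library, the number of higher members went from 5 to 8 (without the first CPN-labelled library) or 3 (without the second).

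The second comparison sets the PN libraries, with Cry genes, against the CPN-labelled ones, which lack them by the label and by the name. By the label the pair differs in the Cry genes alone. By the deposited name it would also differ in Nr1d1 and Nr1d2, and the third comparison would be the one that differs in the Cry genes alone. The members were split, with 22 (31.9%) higher and 19 (27.5%) lower, beside 38.7% and 37.1% of all genes, and a median log2 fold change of 0.06 beside 0.01. Past the fold of 1.75, no member was higher and Rps25 was lower, beside 11.3% and 9.35% of all genes. The largest log2 fold change of a tested member was 0.62, under the limit of 0.81, so in edgeR the count of higher members past the fold is 0 at any p. DESeq2 also gave 0 past the fold. At an unadjusted p under 0.05 in edgeR, with no limit on the fold, 24 members were higher. No share of all genes is given at that p, so this count has no background beside it. With a lower limit on the mean, of 10 normalized counts, 83 members were tested and Rps13 and Rps23 passed the fold as higher. No share of all genes is given at that limit. The number of higher members fell from 22 to 11 without the second CPN-labelled library and to 12 without the second PN library. Without the first CPN-labelled library, Rpl37 passed the fold limit and Rps25, at -0.77 on the log2 scale, did not.

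The third comparison, of the PN with the CP-labelled libraries, gave 43 members (62.3%) higher and 13 (18.8%) lower, beside 42.8% and 39.3% of all genes, and a median log2 fold change of 0.36 beside 0.03. Past the fold of 1.75, 7 were higher (Rps27, Rpl34, Rpl22l1, Rpl27, Rpl23a, Rps19bp1 and Rpl18) and 1, Rps25, was lower, beside 15.2% and 13.8%. With the mean limit lowered to 10, 11 were higher past the fold, again with no share of all genes given at that limit. Without the first CP-labelled library the lower members past the limit were 2, Rps25 and Rplp1. Each comparison shares libraries with the other two, so their values are set side by side and are not independent. Over all 3, 29 of the 63 core members tested were lower in the CP-labelled libraries than in both other groups (46.0%, beside 26.9% of all genes), and 4 were higher there (6.35%, beside 25.6%). In the PN libraries 14 were highest (22.2%, beside 28.0%) and 10 lowest (15.9%, beside 26.0%), and in the CPN-labelled ones 9 were highest (14.3%, beside 16.2%) and 1 was lowest (1.59%, beside 16.7%).

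The members past the fold limit were also members with much shared sequence. The 7 core members past it in at least 1 comparison all had 50% or more of their windows shared, as did 37 of the 63 core members tested. The shares were 50.6% for Rpl34, 61.2% for Rps25, 64.1% for Rpl27, 74.3% for Rpl18, 85.7% for Rpl23a, 90.1% for Rps12 and 98.6% for Rps27. Of the other 2 members past the limit, Rpl22l1 had 65.6% and Rps19bp1 none. The 26 core members with under 50% were shifted the same way in the first and the third comparison, with medians of -0.25 and 0.20 beside -0.31 and 0.40 in the 37. The part of the shared sequence in these differences was not tested.

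**Figure D2:**
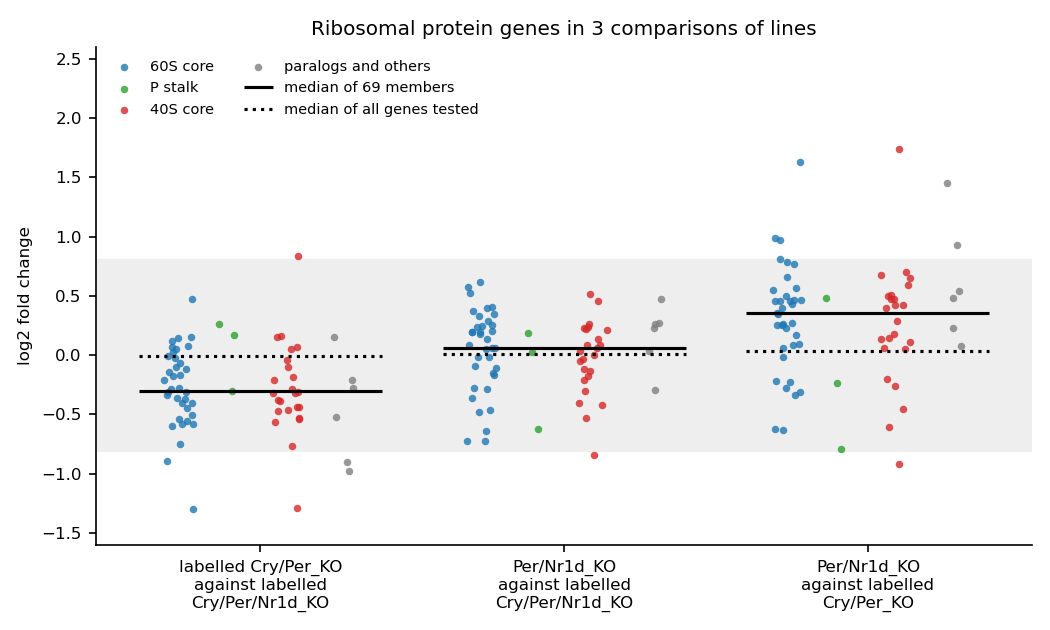
Log2 fold change (y axis) of the 69 tested members in each of the 3 comparisons, 1 point per gene, coloured by class, with the median of the members (line) and of all genes tested (dotted line). The grey band holds folds under 1.75. The members lie mostly below 0 in the first comparison (median -0.30), on both sides of 0 in the second (0.06) and mostly above 0 in the third (0.36).

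Rpl34, a 60S protein, had 10042 and 9605 normalized counts in the CPN-labelled libraries, 3905 and 4070 in the CP-labelled ones and 11551 and 13124 in the PN ones. The 3 groups did not overlap, and the CP-labelled libraries lay far below the rest. The log2 fold change was -1.30 (SE 0.0581) in the first comparison, with an adjusted p of 3.7e-11 in edgeR, 0.33 (SE 0.0556) in the second and 1.63 (SE 0.0582) in the third.

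Rps27, a zinc-finger protein of the 40S subunit, had 224 and 168 normalized counts in the CPN-labelled libraries, 92.4 and 70.7 in the CP-labelled pair, and 250 and 287 in the PN pair. The groups did not overlap, with the CP-labelled pair lowest. Its log2 fold change was -1.29 (SE 0.181) in the first comparison with an adjusted p of 1.2e-05 in edgeR, and 1.74 (SE 0.173) in the third. In the second comparison it was 0.45 (SE 0.146), with an adjusted p of 0.011 in edgeR, 0.054 in DESeq2, and 0.12 and 0.16 in edgeR without the second CPN-labelled or the second PN library. With 98.6% of the windows of its main transcript shared, which copy these counts came from is uncertain.

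Rpl22l1, the paralog of Rpl22, had 1207 and 1046 normalized counts in the CPN-labelled libraries, 533 and 611 in the CP-labelled ones and 1399 and 1722 in the PN ones. It again was lowest in the CP-labelled pair and highest in the PN pair, with no overlap. The log2 fold changes were -0.98 (SE 0.107), 0.48 (SE 0.0980) and 1.45 (SE 0.105).

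Rpl27, a 60S protein, stood at 351 and 303 (CPN-labelled), 183 and 171 (CP-labelled) and 352 and 347 (PN) normalized counts. The CP-labelled libraries were at about the same low level and the other 4 overlapped. The log2 fold change was -0.90 (SE 0.117) in the first comparison and 0.99 (SE 0.117) in the third, and in the second it was 0.09 with an adjusted p of 0.45 in edgeR. Rps19bp1, the partner of RPS19, had the same shape, with 2698 and 2557, 1370 and 1446, and 2681 and 2702 normalized counts, and it shared no window with another gene.

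The 60S proteins Rpl18 and Rpl23a passed the fold limit between the PN and the CP-labelled libraries only. Rpl18 had 4064 and 3301, 2081 and 2303, and 3440 and 4233 normalized counts, with log2 fold changes of -0.75 (SE 0.0982) and 0.81 (SE 0.0982) in the first and the third comparison, so that the first stood just inside the limit and the third just outside. Rpl23a had 101 and 99.95, 83.5 and 51.1, and 143 and 122 normalized counts. The CP-labelled libraries of Rpl23a differed most from each other, and without the second of them its log2 fold change in the first comparison went from -0.60 to -0.27, with an adjusted p of 0.29 in edgeR beside 0.018 with all libraries, 0.058 without the first CPN-labelled library and 0.069 in DESeq2. Rpl23a also has 59.7% of its exon bases overlapped by a gene on the opposite strand, and the strand setting of the counting is not given in the sources used here.

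Rps12, a 40S protein of the beak of the head, went the other way. It had 501 and 374 normalized counts in the CPN-labelled libraries, 736 and 839 in the CP-labelled ones and 491 and 540 in the PN ones. The CP-labelled pair was highest, and the CPN-labelled and PN libraries overlapped. The log2 fold change was 0.84 (SE 0.117) with an adjusted p of 1.1e-05 in edgeR in the first comparison and -0.61 (SE 0.116) in the third. It fell inside the fold limit without the second CPN-labelled library (0.65) or the second CP-labelled library (0.74). Rps12 has 90.1% of its windows shared with other genes, 22 of them pseudogenes.

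Another 3 core members were highest in the CP-labelled libraries: Rpl10a, a 60S protein, and the P stalk proteins Rplp0 and Rplp1. Rpl10a had 1076 and 1027, 1343 and 1577, and 1260 and 1161 normalized counts, with a log2 fold change of 0.47 (SE 0.0810) in the first comparison. Rplp0, the scaffold of the stalk, had 62285 and 55051, 66366 and 74196, and 60816 and 59022, with a log2 fold change of 0.26 (SE 0.0611). Rplp1 was at 35197 and 32438 in the CPN-labelled libraries, 37343 and 38577 in the CP-labelled ones and 22501 and 21512 in the PN ones, and its log2 fold change of 0.17 in the first comparison had an adjusted p of 0.0054 in edgeR and of 0.068 without the second CPN-labelled library. The third stalk protein, Rplp2, which pairs with Rplp1, was lower instead, with a log2 fold change of -0.30 in the first comparison, so the stalk genes did not move together.

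Rps25, a 40S protein that some viral and cellular mRNAs need for initiation, was low in the PN libraries. It had 235 and 213 normalized counts in the CPN-labelled libraries, 243 and 230 in the CP-labelled ones and 112 and 135 in the PN ones. The PN pair lay apart and the other 4 libraries overlapped. The log2 fold change was -0.85 (SE 0.134) against the CPN-labelled libraries, with an adjusted p of 3.7e-05 in edgeR, and -0.91 (SE 0.134) against the CP-labelled ones. Genes on the opposite strand overlap 24.8% of its exon bases.

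Other core members stood at the ends of the second comparison. Rpl35a, a 60S protein, had 2573 and 2805, 1584 and 2202, and 1840 and 1439 normalized counts, and Rpl14, also of the 60S subunit, 9359 and 9192, 8440 and 8874, and 5638 and 5616. Both were lower in the PN than in the CPN-labelled libraries, each by 0.72 on the log2 scale (SE 0.124 and 0.0446). The 60S proteins Rpl37, Rpl15 and Rpl37a were higher there, with log2 fold changes of 0.62 (SE 0.144), 0.58 (SE 0.0578) and 0.52 (SE 0.0858), of which that of Rpl37 had an adjusted p of 0.066 in edgeR without the second PN library. Rpl15, with 2061 and 2093, 2208 and 2184, and 2960 and 3230 normalized counts, kept the CPN-labelled and CP-labelled libraries close to each other and the PN pair above. Rpl15 lies on chromosome 14 and Rpl37a on chromosome 1, whose other genes had medians of 0.52 and 0.28 in this comparison. After subtraction of the chromosome median, Rpl15 stood at 0.06, Rpl37a at 0.24 and Rpl37 at 0.59. Rpl35a and Rpl14 stood at -0.60 and -0.26.

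**Figure D3:**
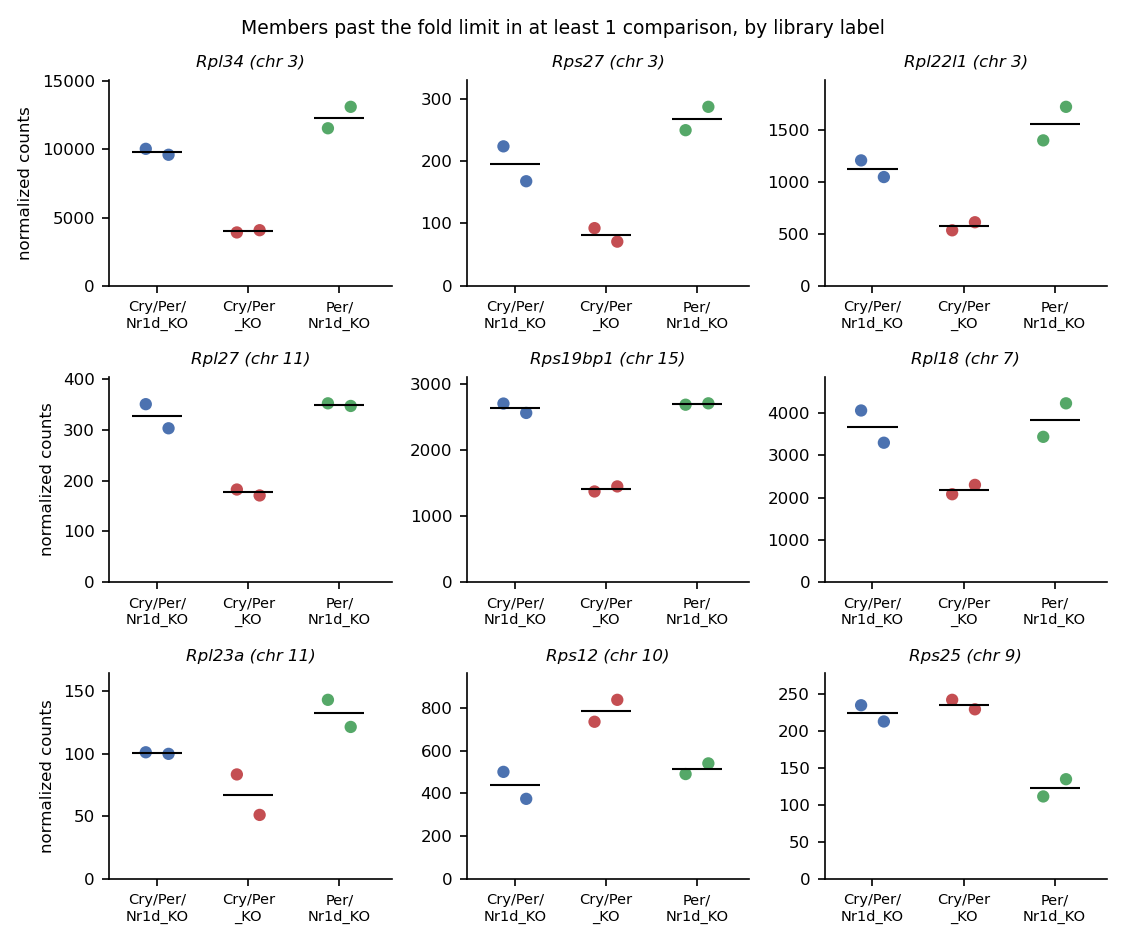
Normalized counts (y axes, each from 0) of the 9 members past the fold of 1.75 in at least 1 comparison, 1 point per library, in blue (CPN-labelled), red (CP-labelled) and green (PN), with group means as lines. In 7 panels the red points lie lowest, Rps12 has its red points highest, and Rps25 has its green points lowest.

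Some of these genes lie on chromosomes whose other genes moved as a whole. A chromosome was called shifted where the median log2 fold change of its genes other than the members was beyond 0.25 in either direction. Chromosome 3 had medians of -0.64, 0.23 and 0.88 in the 3 comparisons over 573 genes, and it carries Rpl34, Rps27, Rpl22l1 and Rps3a1. Chromosome 9 had medians of 0.38, -0.46 and -0.84 over 651 genes, and it carries Rps25, Rpl4, Rpl14, Rpl29, Rplp1, Rps27l and Rps27rt. The members on chromosome 3 moved in the direction of the chromosome in all 3 comparisons. After subtraction of the chromosome median, Rpl34 stood at -0.66, 0.10 and 0.76, Rps27 at -0.64, 0.22 and 0.86, and Rpl22l1 at -0.33, 0.25 and 0.58, so a part of each difference was left. Rps3a1, a 40S protein, had log2 fold changes of -0.44, 0.24 and 0.68 and 0.20, 0.01 and -0.20 after subtraction (the 0.24 had an adjusted p of 0.014 in edgeR and 0.37 without the second PN library), which puts it nearer to 0 than the other 3 in each comparison, and on the opposite side of 0 from them in the first and the third.

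The core members on chromosome 9 followed it in the PN libraries. Between the PN and the CPN-labelled libraries, all 5 tested core members of chromosome 9 were lower, with a median of -0.64 beside -0.46 for the other genes of the chromosome, and all 5 core members on chromosomes 1 and 14, which were shifted upward, were higher, with a median of 0.52 beside 0.38. Rpl4, a 60S protein with 68579 and 68118 normalized counts in the CPN-labelled, 65918 and 70251 in the CP-labelled and 45610 and 42396 in the PN libraries, shows this: its log2 fold change of -0.64 (SE 0.0487) left -0.17 after subtraction. Rps25 left -0.38 in that comparison and -0.07 against the CP-labelled libraries. Rps27l was the exception on chromosome 9, being higher in the PN libraries by 0.27 and 0.48 while the chromosome was lower, although the first of these had an adjusted p of 0.13 in edgeR without the second PN library.

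Between the CP-labelled and CPN-labelled libraries the position did not sort the members in the same way. On the 5 chromosomes shifted upward (6, 9, 12, 13 and 18) the 9 core members had a median of 0.05 beside 0.35 for the other genes, and only Rplp1 was called higher. On the 3 shifted downward (3, 7 and 15) the 17 core members had a median of -0.31 beside -0.36, with 13 lower. On the 12 chromosomes with no shift, the 37 core members still had a median of -0.32 beside -0.03, with 22 lower and 3 higher. Rpl27 and Rps12, on chromosomes 11 and 10, kept -0.93 and 0.95 after subtraction. Rpl18 on chromosome 7 and Rps19bp1 on chromosome 15, both shifted downward, went from -0.75 to -0.49 and from -0.90 to -0.61. Over the 63 core members the median went from -0.30 to -0.23 after subtraction in the first comparison, from 0.06 to 0.06 in the second and from 0.35 to 0.21 in the third. The SD of their log2 fold changes went from 0.36 to 0.31, from 0.34 to 0.24 and from 0.50 to 0.33. In the second comparison the 53 core members on chromosomes with no shift had a median of 0.06 beside 0.01, with 13 higher and 13 lower. In the third the 43 on such chromosomes had 0.36 beside 0.03, with 27 higher and 6 lower. There the 12 on chromosomes shifted upward had 0.59 beside 0.52, and the 8 on those shifted downward -0.54 beside -0.60. Copy numbers were not measured, and the part of the position in the members' differences was not tested.

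**Figure D4:**
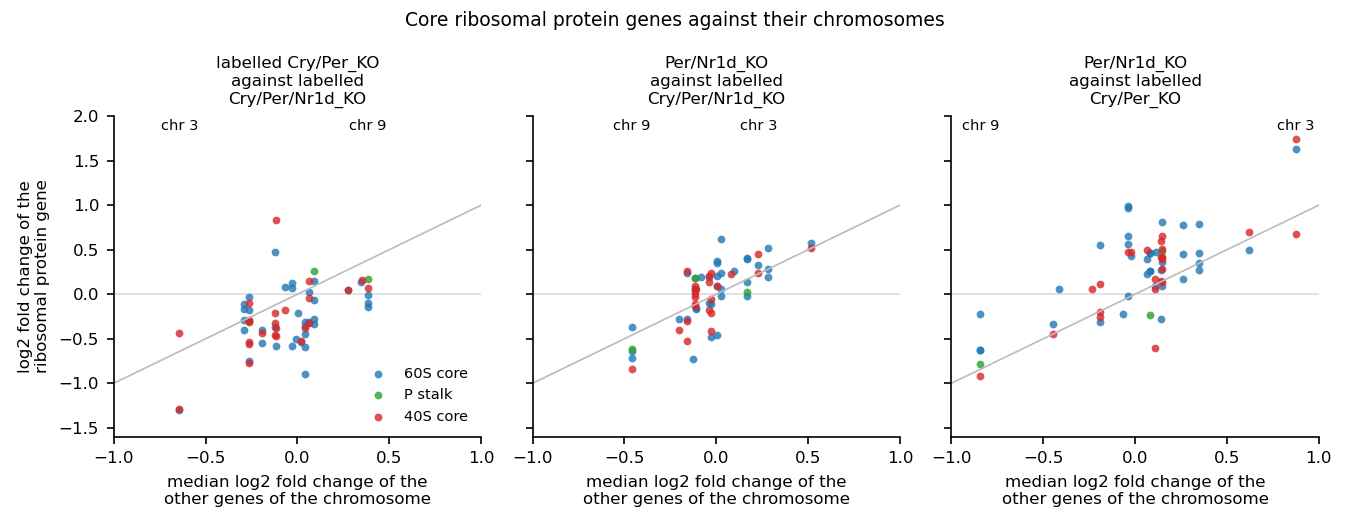
Log2 fold change of each of the 63 tested core members (y axis) against the median log2 fold change of the other genes of its chromosome (x axis), 1 panel per comparison, with a grey line where both are equal. In the second panel the chromosome 9 members (left) lie at -0.85 to -0.36, from 0.38 below the line (Rps25) to 0.10 above it (Rpl29), and in the first panel most members lie below the line, with a median distance of -0.23.

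The paralogs are copies of ribosomal protein genes that some tissues use in place of the main gene. Rpl22l1 made 6.26% and 5.53% of the summed counts of Rpl22 and Rpl22l1 in the CPN-labelled libraries, 2.79% and 3.26% in the CP-labelled ones, and 8.86% and 10.2% in the PN ones. The 3 groups did not overlap. With 65.6% of the windows of Rpl22l1 shared against 24.5% of those of Rpl22, the size of this share does not give the proportion of the 2 mRNAs. Rpl22 itself, which is known to lower Rpl22l1 expression, had 18067 and 17873, 18575 and 18114, and 14396 and 15192 normalized counts. Between the CPN-labelled and CP-labelled libraries, where Rpl22l1 differed, its log2 fold change was 0.03 (SE 0.0428, adjusted p = 0.54 in edgeR), and it was lower by 0.28 in the PN libraries than in the CPN-labelled ones.

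In the order CPN-labelled, CP-labelled and PN, Rps27l, a p53-responsive paralog of Rps27, had 4568 and 3997, 3559 and 3855, and 4763 and 5573 normalized counts. It took 95.3% and 96.0%, 97.5% and 98.2%, and 95.0% and 95.1% of the counts of the pair. Only 22.4% of the windows of Rps27l are shared, against 98.6% in Rps27, so these shares say little about the 2 mRNAs. The same holds for Rpl36al, a copy of Rpl36a, which held 93.5% to 96.8% of the counts of its pair with Rpl36a, in which 85.5% of windows are shared, and for Rps27rt, a retrogene of Rps27 with 53.7 to 135 normalized counts and 91.1% of windows shared. Rpl7l1, a relative of Rpl7 that acts in 60S assembly, with 9.19% of its windows shared, had 12878 and 11759, 13253 and 14086, and 14386 and 14441 normalized counts. It was higher by 0.15 in the first comparison (adjusted p = 0.013 in edgeR, and past 0.05 without the second CPN-labelled or the second CP-labelled library). Rpl7, a 60S protein, was lower in the CP-labelled libraries by 0.58 on the log2 scale (SE 0.0484), and Rpl7l1 made 70.0% and 72.8% of the pair there against 59.1% to 61.1% in the other 4 libraries, with 53.3% of the windows of Rpl7 shared.

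The paralogs of muscle and testis were at or near 0. Rpl3l, the heart and skeletal muscle form of Rpl3, had 1 to 8 counts in a library, at most 0.143% of its pair with Rpl3. Rps4l, a relative of Rps4x, had 0 to 2 counts and Rps23rg1, a retrogene of Rps23, 2 counts in 1 library and none in the other 5. Rpl10l and Rpl39l, which male germ cells use in place of the X-linked Rpl10 and Rpl39, had none. Where none was counted, up to 3 counts cannot be told from 0, for counting error alone. The other copies were named after their values were seen: Rpl6l had 0 to 6 counts, Rpl32l 33 to 81 counts, and Rpl37rt, with 73.8% of its windows shared, 4449 to 7340 normalized counts and a log2 fold change of -0.52 in the first comparison.

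**Figure D5:**
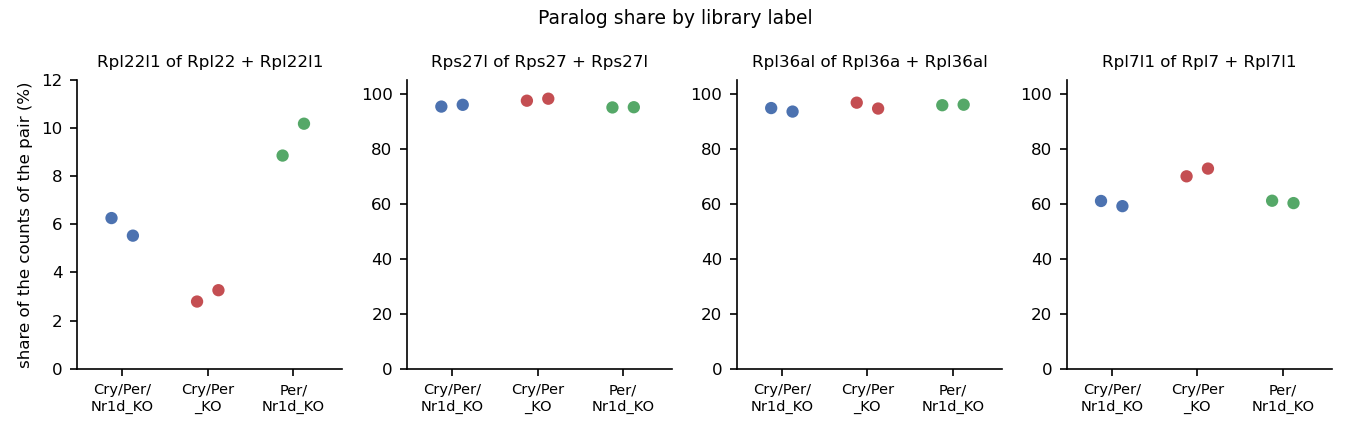
Share of a paralog in the counts of the pair (y axes, percent, from 0), 1 point per library, in blue (CPN-labelled), red (CP-labelled) and green (PN), for Rpl22l1, Rps27l, Rpl36al and Rpl7l1. The share of Rpl22l1 is 2.79% and 3.26% in the red points and 8.86% and 10.2% in the green ones, and the share of Rpl7l1 is highest in the red points.

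Of Fau, Rpsa and Rack1, whose names fall outside the naming rule, Rpsa, the 40S protein also known as the laminin receptor, differed most, with 775 and 706 (CPN-labelled), 1188 and 1282 (CP-labelled) and 494 and 522 (PN) normalized counts. No groups overlapped, and the log2 fold changes were 0.74 (SE 0.0787), -0.54 (SE 0.0847) and -1.28 (SE 0.0819). Rpsa lies on chromosome 9. Fau, which encodes RPS30 fused to a ubiquitin-like protein, was at -0.47, 0.35 and 0.82. Rack1, a scaffold on the 40S head, was at 0.05, 0.38 and 0.33.

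Other genes of the ribosome and of translation are given by counts. In the first comparison, 15 of 19 genes of rRNA production were lower and 1 higher, with a median of -0.73, and 18 of 20 genes of ribosome assembly and import were lower and none higher, with a median of -0.55. Among them, Nop56, a box C/D snoRNP protein, was lower by 1.23 on the log2 scale (SE 0.0438), Polr1b, a subunit of RNA polymerase I, by 1.29 (SE 0.0588), and Grwd1, a chaperone of RPL3, by 1.41 (SE 0.0821). Of 22 initiation factors, 20 were lower and 2 higher (median -0.40), with Eif4e, the cap-binding protein, lower by 1.12 (SE 0.0477). Of 23 other genes with a TOP motif, 15 were lower and 4 higher (median -0.21). Of 75 mitochondrial ribosomal protein genes tested, 57 were lower and 5 higher, with a median of -0.35, close to the cytosolic members. Of 20 regulators tested (mTOR pathway, MYC, LARP1 and the like) 7 were lower and 6 higher (median -0.05). Among the lower ones, Myc, a transcription factor that drives ribosome production, was lower by 0.57 on the log2 scale (SE 0.0526, adjusted p = 1.2e-07 in edgeR) and Larp1, which binds TOP mRNAs, by 0.34 (SE 0.0409, adjusted p = 2.3e-06), while the kinase gene Mtor was higher by 0.40 (SE 0.0443, adjusted p = 8.8e-07) and Rptor, its partner in mTOR complex 1, by 0.43 (SE 0.0484, adjusted p = 9.8e-07). These 4 were singled out after their values were seen. In the third comparison Myc and Larp1 were higher by 0.49 (SE 0.0526) and 0.35 (SE 0.0409), and Mtor and Rptor were at -0.45 (SE 0.0444) and -0.71 (SE 0.0488). In the second, Rptor was at -0.28 with an adjusted p of 0.00011 in edgeR, and Myc, Larp1 and Mtor were at -0.08, 0.01 and -0.05 with no call. In the third comparison the medians of these lists were 0.76 for rRNA production, 0.44 for assembly, 0.24 for initiation factors, 0.17 for other TOP genes, 0.35 for mitochondrial ribosomal proteins and -0.02 for the regulators. In the second they were -0.05, -0.13, -0.21, -0.05, -0.06 and -0.06. The background for all of these is the share of all genes tested given for each comparison.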

How the data were processed

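RNA-seq libraries (poly-A enriched, strand-specific, single-end) of 6 samples in 3 groups of 2 were used. The authors used STAR to map reads to mm10 and featureCounts to count them, and they deposited raw counts per Entrez gene. The annotation, strand setting and treatment of multi-mapping reads are not given in the sources used here. Tables of the authors' own comparisons by DESeq2 1.22.2 (baseMean, log2 fold change, standard error and p-values) were not used.

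Here, counts were tested in R 4.3.3 with edgeR 4.0.16 (TMM, 1 quasi-likelihood fit of 6 libraries, no covariate) on the 11934 genes whose normalized counts averaged at least 100. The SE is the log2 fold change divided by the square root of F. The common biological coefficient of variation was 0.0393. Replicates differed beyond sampling noise (chi-square per degree of freedom 8.07 to 16.8). Transcript lengths, windows of 50 bases and overlaps came from GENCODE vM21, and promoter windows from RefSeq GRCm38.p6. The analysis was tested on simulated data.

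Alternatives were DESeq2 1.42.0, median-of-ratios factors, TMM without the members, other filters, a block for the replicate number, the compared groups alone, each library left out, and core members alone. The members, lists and tests were chosen with earlier results of these data known. Values are given for members past the fold limit, paralog pairs, the 3 largest and smallest changes of each comparison and the 3 highest and lowest levels. Members outside these rules are named for their position, their class or their pattern.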

Additional observations from a re-analysis of the deposited data

How the results depend on the processing

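With 2 libraries per group, every SD is limited. The treatment of reads shared between copies is not known, so the levels compare genes only for what was counted. The part of shared reads in the levels was not tested. The direction of the members' median held in the first and the third comparison under every alternative run. In the second, of 0.06, it was -0.0035 without the second CPN-labelled library and 0.19 without the first.

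Scaling by median-of-ratios factors or by TMM without the members, and DESeq2, left the counts of called members within 1.5 times. With no expression filter, and likewise with a mean of at least 10, 8 members passed the fold limit as lower in the first comparison, 2 as higher in the second and 11 as higher in the third. No share of all genes is given for these other filters. The members added by the lower limit were Rpl28, Rpl35 and Rps13 (lower in the first), Rps13 and Rps23 (higher in the second) and Rpl13, Rpl28, Rpl35 and Rps13 (higher in the third). Without the filter 8 were higher at the adjusted p in the first. With core members alone, 3 passed the fold limit as lower in the first, and the family shares were 0.890% (CPN-labelled), 0.810% (CP-labelled) and 0.792% (PN), since fewer genes were counted. Among the 26 core members tested with under 50% of windows shared, an alternative chosen after seeing the data, 1 was higher and 15 lower in the first comparison, 7 and 10 in the second, and 14 and 5 in the third, with medians of -0.25, 0.015 and 0.20.

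With 1 library left out, members past the fold limit as higher ran from 0 to 1 in the first comparison and 0 to 1 in the second. Those past it as lower ran from 0 to 1 in the second and 1 to 2 in the third. At the adjusted p alone, the higher members ran from 3 to 8 in the first and from 11 to 31 in the second. Values that changed sign in such fits were, in the first comparison, Rpl37 (from -0.41 to 0.09), Rpl5 (from -0.51 to 0.055) and Rpl4 (from -0.052 to 0.040). In the second they were Rpl5 (from -0.25 to 0.31), Rpl27 (from -0.00508 to 0.2), Rpl8 (from -0.039 to 0.15), Rps19bp1 (from -0.0035 to 0.074), Rplp0 (from -0.056 to 0.12), Rpl18 (from -0.11 to 0.22), Rps4x (from -0.28 to 0.13) and Rpl3 (from -0.084 to 0.041). In the third it was Rpl35a (from -0.44 to 0.039). The cause was not tested.

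The replicate block, which treats equal replicate numbers as paired, gave 5 higher and 39 lower members in the first comparison, 19 and 18 in the second and 42 and 11 in the third. It turned Rpl5 in the second to 0.014. Nothing in the sources pairs the numbers, and the correlations of their deviations were -0.19, -0.084 and -0.020.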
